A study of Homo sapiens with 8 samples.

Results

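The PAR bZIP factors HLF, DBP and TEF, their competitor NFIL3 and the positive clock factors ARNTL, CLOCK, NPAS2 and RORA were examined in A375 cells that carried SLNCR1 constructs. These 8 genes were found by identifier in each of the 3 deposited tables, among 56638 entries. A375 is an established human malignant melanoma line with an activated BRAF kinase. SLNCR1 is a long noncoding RNA that has been tied to melanoma invasion. Cells in medium with 10% serum were transfected by Lipofectamine 2000, 24 h after seeding, and their RNA was taken 48 h after transfection. The pcDNA3.1(-) plasmid carried full-length SLNCR1 (SLNCR1 group), SLNCR1 without its conserved region (delta-conserved group), the conserved region alone (conserved group), or no insert (vector group). All 4 groups thus received plasmid and lipid, and no untransfected cells were analysed here. Each group had 2 libraries of poly(A)-selected RNA from 1 cell line. The labels do not say that the 2 came from separate cultures, so p-values measure the spread between these libraries, which may be technical. The labels give no hour of the day and no step that sets the clocks of the cells to a common phase, so each value is a single time point of genes known to cycle.

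The mammalian clock is a feedback loop of transcription. ARNTL (BMAL1) pairs with CLOCK or NPAS2 and binds E-boxes in the genes of the period and cryptochrome repressors, which then inhibit that pair. The same E-boxes drive output genes, among them the PAR bZIP factors, which carry a proline- and acid-rich domain beside their basic leucine zipper and activate genes through D-boxes. NFIL3 binds the same D-boxes and represses. RORA activates ARNTL through ROR elements, where the REV-ERB repressors compete with it. HLF is also known as a regulator of blood stem cells and as a fusion partner in leukaemia, DBP as an albumin promoter factor of liver, and TEF as a factor first described in the pituitary.

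The starts of the 3 PAR bZIP genes are shown because their RNA changed together, and the other sites because RORA's targets include ARNTL. RefSeq promoter windows on GRCh38.p14, from 250 bases before to 50 bases after each start, matched all 8 genes with 13 windows (ARNTL is listed there as BMAL1). Both strands were searched for the E-box CACGTG, the D-box as TTATGTAA or TTACGTAA, the cAMP response element TGACGTCA and the core of the ROR element TAGGTCA. These motifs were chosen after the results were known. An E-box was present upstream of both TEF starts, a cAMP response element across the first HLF start, and a ROR core near the second NFIL3 start (on the other strand) and the first BMAL1 start. No window of these genes held a D-box, and the DBP window held none of the 4 motifs. No 2 matches overlapped. In the sites below, 5′ to 3′ on the strand of the gene, capitals mark the motif. The TEF sites start 195 and 193 bases before the start, the HLF site 7 and the NFIL3 site 9 bases before it, and the BMAL1 site 31 bases after it.
TEF start 1, E-box (+ strand, chr22:41367248-41367277): gcgcgacagctcCACGTGctgcagctggcg
TEF start 2, E-box (+ strand, chr22:41381737-41381766): cacctggccccgCACGTGtctatcttatcc
HLF start 1, cAMP response element (+ strand, chr17:55264942-55264971): ggtgcgggcccTGACGTCActcttgtcagg
NFIL3 start 2, ROR core (- strand, chr9:91423823-91423852): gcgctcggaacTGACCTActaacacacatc
BMAL1 start 1, ROR core (+ strand, chr11:13277809-13277838): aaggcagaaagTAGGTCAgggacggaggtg
The 250 bases before 1 start of each PAR bZIP gene are given below, with the E-box of TEF again in capitals.
HLF start 1 (+ strand, chr17:55264710-55264959): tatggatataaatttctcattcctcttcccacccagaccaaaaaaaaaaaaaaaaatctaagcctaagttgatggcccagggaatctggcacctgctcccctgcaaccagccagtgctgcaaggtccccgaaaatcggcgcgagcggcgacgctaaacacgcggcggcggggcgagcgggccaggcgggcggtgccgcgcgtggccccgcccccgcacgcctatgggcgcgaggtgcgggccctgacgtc
DBP (- strand, chr19:48637380-48637629): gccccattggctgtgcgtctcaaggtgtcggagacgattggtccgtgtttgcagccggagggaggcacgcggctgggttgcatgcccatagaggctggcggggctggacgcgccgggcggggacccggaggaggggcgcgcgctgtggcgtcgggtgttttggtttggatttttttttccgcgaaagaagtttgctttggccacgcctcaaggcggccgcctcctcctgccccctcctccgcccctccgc
TEF start 2 (+ strand, chr22:41381692-41381941): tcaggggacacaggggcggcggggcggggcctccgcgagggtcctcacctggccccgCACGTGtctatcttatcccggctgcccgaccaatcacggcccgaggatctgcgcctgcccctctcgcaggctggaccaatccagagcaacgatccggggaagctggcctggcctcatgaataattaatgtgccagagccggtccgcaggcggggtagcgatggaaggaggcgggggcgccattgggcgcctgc
Of 35116 RefSeq windows of this length, 7.26% held the E-box, 1.01% the D-box, 1.85% the cAMP response element and 1.85% the ROR core. The windows were rich in G and C, at 62.4% for this HLF window, 67.2% for DBP and 68.4% for this TEF window, against a median of 58% over all windows. A match describes letters, not a bound site, and the absence of a match says only that these letters are not in this window.

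The libraries held 10097194 and 9090649 reads on genes with SLNCR1, 9187241 and 8222868 with delta-conserved, 11339739 and 10280768 with conserved, and 12015394 and 11321294 with vector. The deeper library of a group is called a and the other b, since the deposited group means do not tie a library to a replicate number. On the second principal component, which held 16.0% of the variance, SLNCR1 library b lay at 24.0, against -5.62 for SLNCR1 library a. Reads of LINC00511, the gene that encodes SLNCR1, gave positive differences with all 3 constructs in the authors' deposited table. The log2 was 0.49 for SLNCR1 (adjusted p = 0.00559), 0.69 for delta-conserved (adjusted p = 0.145) and 0.80 for conserved (adjusted p = 5.89e-15). By limma LINC00511 was higher than with vector for all 3 constructs, at 0.68 for delta-conserved (adjusted p = 0.000296). By the same test it was lower with SLNCR1 than with conserved (log2 -0.32, adjusted p under 0.05). The part of these levels in the values below was not tested. Plasmid and genomic transcripts of this gene were not told apart. Summed reads of 7 melanocytic markers came to 431 and 439 RPM (reads scaled to the library total) with SLNCR1, 433 and 434 with delta-conserved, 403 and 414 with conserved, and 394 and 409 with vector. SOX10 and MITF supplied most of these, while the pigment enzymes TYR and DCT were at or near 0. Over the libraries S100B ran from 10.4 to 15.4 RPM, PMEL from 1.85 to 4.23 and MLANA from 0.990 to 1.70. In the authors' deposited table SOX10 rose with delta-conserved (log2 0.25, adjusted p = 0.0202) and was at 0.23 with SLNCR1 (adjusted p = 0.516). By limma SOX10 was higher than with vector in both, by 0.26 with delta-conserved (adjusted p = 0.0286) and, barely passing, by 0.22 with SLNCR1 (adjusted p = 0.0496). MITF was at -0.24 with SLNCR1 (adjusted p = 1) and -0.28 with delta-conserved (adjusted p = 0.140), and by limma it was lower than with conserved, by -0.36 with SLNCR1 (adjusted p = 0.0172) and -0.39 with delta-conserved (adjusted p = 0.0156). Lists of 3 markers of other cell types summed to lower levels than the melanocytic list. Not every member was lower, since KRT14 (7.32 to 11.2 RPM) and COL1A1 (13.5 to 27.3 RPM) exceeded PMEL and MLANA in every library. Keratinocyte markers summed to 10.3 and 11.2 RPM with SLNCR1, 10.2 and 8.76 with delta-conserved, 7.67 and 10.3 with conserved, and 11.7 and 10.9 with vector, mostly from KRT14. Fibroblast markers summed to 18.1 and 18.8 RPM with SLNCR1, 28.8 and 29.1 with delta-conserved, 32.1 and 14.5 with conserved, and 20.2 and 22.9 with vector, mostly from COL1A1. Endothelial markers summed to 1.19 and 1.21 RPM with SLNCR1, 1.96 and 1.82 with delta-conserved, 2.12 and 1.56 with conserved, and 2.83 and 1.77 with vector. Of these PECAM1 had no reads in any library, CDH5 had 0 to 7, and VWF had 9 to 28, at a log2 of -1.01 with SLNCR1 in the authors' deposited table (adjusted p = 0.938). The leukocyte markers together had 0 to 3 reads in each library. The markers' part in the values below was not tested.

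HLF, DBP and TEF were all lower with SLNCR1 and with delta-conserved than with vector, and none of them passed the test with the conserved region. HLF, the least abundant of the 3, was the most reduced. In the authors' deposited table, 3 of the 8 genes fell with SLNCR1, 3 fell with delta-conserved, and none passed with conserved, at the authors' adjusted p under 0.05. The 3 were HLF, DBP and TEF in both cases. Over all genes with a p-value, 0.844% were called lower with SLNCR1, 1.14% with delta-conserved, and 0.0175% were called in either direction with conserved. The 8 genes were grouped with these results known, so their values, calls and adjusted p-values, which were computed over all genes, describe them and are not independent support. The median log2 of the 8 genes was -0.56 with SLNCR1, -0.43 with delta-conserved and -0.02 with conserved, beside 0.00184, 0.00769 and 0.00593 over all genes in the same tables. The 3 comparisons share the vector libraries.

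HLF had 5.03 and 2.21 normalized counts with SLNCR1, 5.56 and 3.79 with delta-conserved, 47.2 and 57.0 with conserved, and 54.3 and 46.2 with vector. Normalized counts are reads divided by a size factor per library, and the values of a group are given for library a and then b. The libraries with SLNCR1 and delta-conserved were low, those with conserved and vector were high, and the ranges of these pairs of groups did not overlap. The libraries fall in the same clusters over all genes. The share of all genes with such a separation was not counted, here or for the genes below. These values rest on few reads, 7 with SLNCR1, 8 with delta-conserved and 110 with conserved, against 119 with vector. From those counts HLF stood at 7.31% of vector with SLNCR1 (95% exact binomial interval 2.88 to 15.5), at 9.39% with delta-conserved (3.96 to 19.1) and at 103% with conserved (78.6 to 134), and the intervals cover counting error only. The authors' deposited table gave a log2 of -3.79 for SLNCR1 (adjusted p = 3.23e-09), -3.43 for delta-conserved (adjusted p = 5.83e-08) and 0.04 for conserved (adjusted p = 1). Among the 12735 genes with a mean of at least 50 normalized counts in the higher group of SLNCR1 and vector, HLF had the second largest fall. It met this filter only through the authors' vector mean, 52.8 in that comparison. The rank thus depends on where the filter was set and adds no support. In the delta-conserved comparison the authors' vector mean of HLF was 49.97, just under the filter, so no rank is given. Fewer cells with HLF RNA and less of it in each cell cannot be told apart in bulk samples, here or for the genes below.

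DBP had 275 and 298 normalized counts with SLNCR1, 280 and 234 with delta-conserved, 540 and 599 with conserved, and 648 and 686 with vector. Both libraries of SLNCR1 and of delta-conserved lay below every library of the other groups, and the conserved libraries lay just below the vector libraries. The authors' deposited table put DBP at 43.0% of vector with SLNCR1 (log2 -1.22, adjusted p = 1.74e-16), at 38.4% with delta-conserved (log2 -1.38, adjusted p = 2.06e-26) and at 84.4% with conserved (log2 -0.24, unadjusted p = 0.0114, adjusted p = 1). In the library preparation used here strand is not kept, and 10.1% of the exon bases of DBP overlap SPHK2, a sphingosine kinase gene on the other strand. SPHK2 had 769 and 755 reads with SLNCR1, 736 and 596 with delta-conserved, 929 and 790 with conserved, and 930 and 986 with vector, where DBP had 273 and 270, 252 and 185, 606 and 599, and 800 and 772 reads in the same order. The part of SPHK2 reads in the DBP values was not tested.

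TEF had 198 and 221 normalized counts with SLNCR1, 228 and 196 with delta-conserved, 509 and 505 with conserved, and 513 and 505 with vector. The conserved and vector libraries were within a few counts of each other, and both lay far above the other 4 libraries. TEF stood at 41.3% of vector with SLNCR1 (log2 -1.28, adjusted p = 2.36e-15), at 41.6% with delta-conserved (log2 -1.27, adjusted p = 1.83e-18) and at 98.5% with conserved (log2 -0.02, adjusted p = 1) in the authors' deposited table. Its annotated exons overlap no other gene's exons, and neither do those of HLF, NFIL3 and ARNTL.

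**Figure D1:**
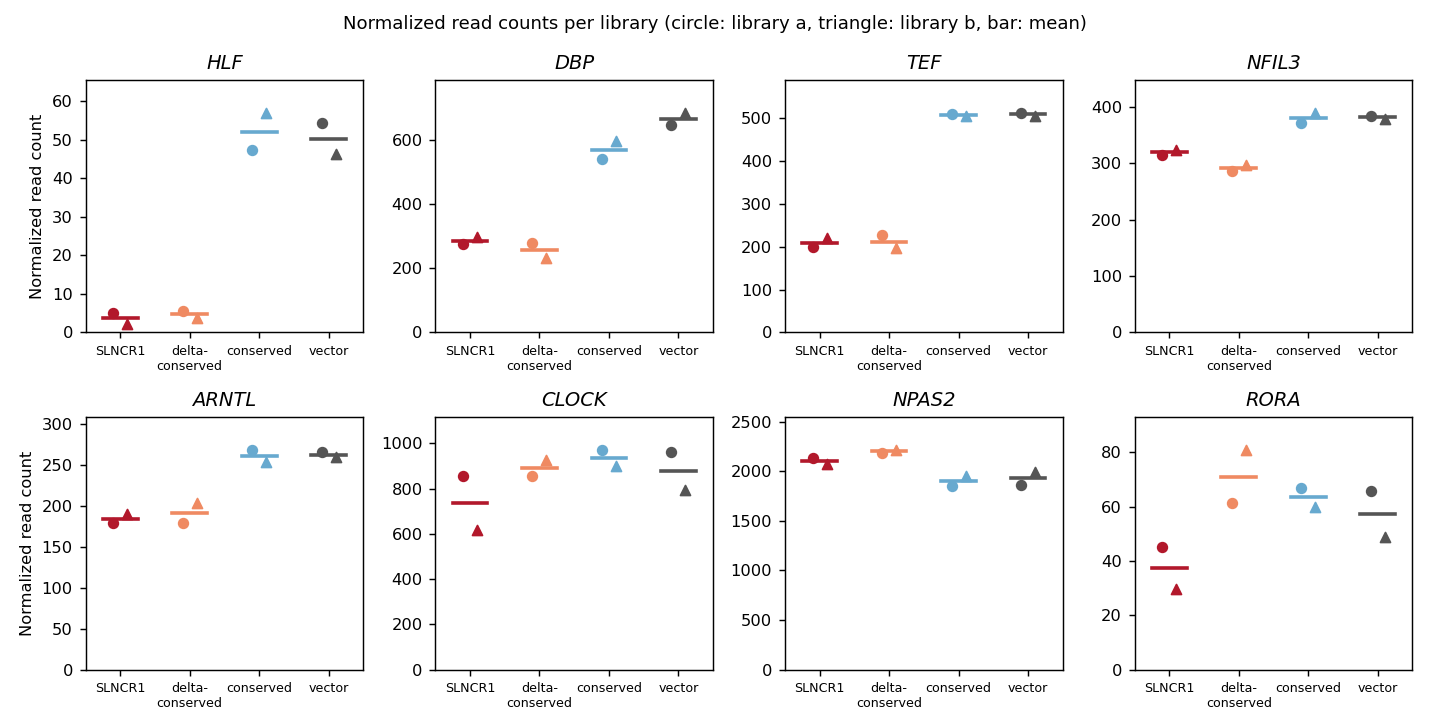
Normalized read counts (y axis, linear, starting at 0) of the 8 genes in the 4 groups (x axis); circles are library a, triangles library b and bars the mean of 2 libraries. HLF, DBP and TEF lie low with SLNCR1 and delta-conserved and high with conserved and vector, while CLOCK and RORA spread widely between libraries of a group.

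The same 8 genes were tested on 1 scale for all comparisons with limma, on log2(normalized count + 1) over the 8 libraries and 16073 genes, with Benjamini-Hochberg adjustment. On this scale changes of low genes such as HLF are understated. Against vector, HLF differed by -3.54 ± 0.37 with SLNCR1 (SE, adjusted p = 1.09e-05) and by -3.19 ± 0.37 with delta-conserved (adjusted p = 3.73e-05). DBP differed by -1.22 ± 0.10 with SLNCR1 (adjusted p = 3.27e-07) and by -1.38 ± 0.10 with delta-conserved (adjusted p = 6.24e-08). TEF differed by -1.28 ± 0.10 with SLNCR1 (adjusted p = 1.81e-07) and by -1.26 ± 0.10 with delta-conserved (adjusted p = 1.84e-07). With conserved the 95% intervals of the difference from vector ran from -0.74 to 0.84 for HLF, from -0.44 to -0.02 for DBP (adjusted p = 0.830) and from -0.21 to 0.20 for TEF. By limma 4 of the 8 genes were lower with SLNCR1, 5 with delta-conserved and none with conserved. Over all genes tested, 7.4% were called lower with SLNCR1 and 5.24% with delta-conserved, and 0.00622% were called in either direction with conserved. The genes beyond HLF, DBP and TEF were ARNTL in both comparisons and NFIL3 with delta-conserved.

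**Figure D2:**
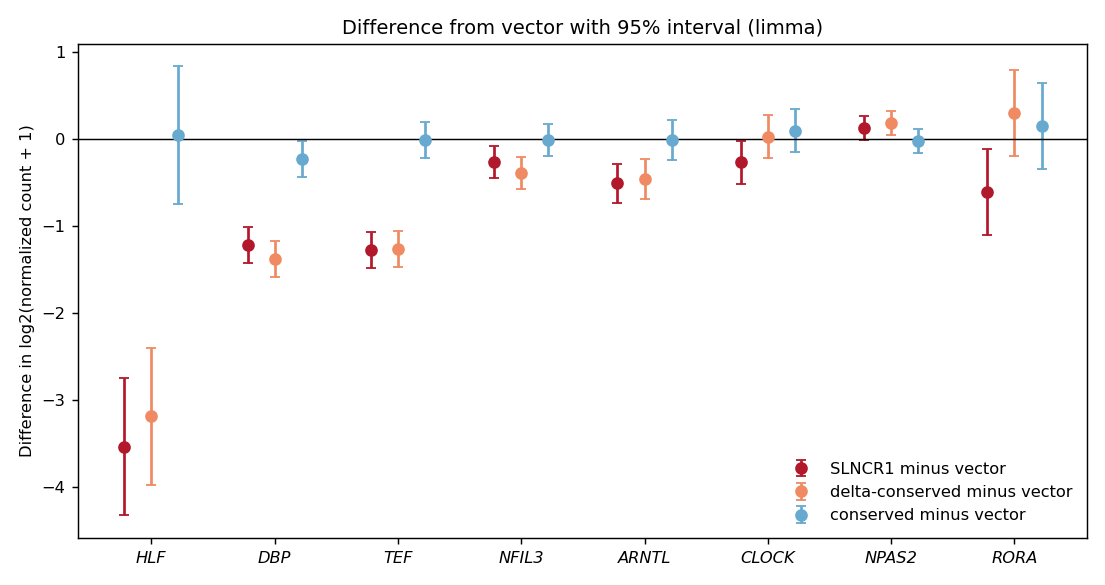
Difference of each construct from vector in log2(normalized count + 1) by limma (y axis) for the 8 genes (x axis); points are the estimates and bars the 95% intervals over 2 libraries a group. HLF is the most reduced with SLNCR1 and delta-conserved (-3.54 and -3.19), and the conserved intervals include 0 for every gene but DBP (-0.44 to -0.02).

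NFIL3, the repressor that competes for D-boxes, moved far less than the 3 activators. NFIL3 had 315 and 324 normalized counts with SLNCR1, 287 and 297 with delta-conserved, 371 and 390 with conserved, and 385 and 379 with vector. All 4 libraries of the first 2 groups lay below all 4 of the others, though by a modest margin. The share of all genes that do so was not counted, so this adds no support. The authors' deposited table put NFIL3 at a log2 of -0.25 for SLNCR1 (adjusted p = 0.908), -0.39 for delta-conserved (adjusted p = 0.0885) and -0.02 for conserved (adjusted p = 1). By limma the difference was -0.26 ± 0.09 with SLNCR1 (adjusted p = 0.0653) and -0.39 ± 0.09 with delta-conserved (adjusted p = 0.00973). The delta-conserved call did not hold when vector library a (adjusted p = 0.0979), delta-conserved library a (0.0730) or delta-conserved library b (0.0735) was left out.

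Levels of different genes were compared per length, as RPKM (reads divided by the exon length in kilobases and by the library total), with exon lengths of GENCODE release 29. With SLNCR1 the order was NPAS2 at 16.7 ± 0.21, NFIL3 at 15.2 ± 0.46, CLOCK at 6.20 ± 1.36, TEF at 4.40 ± 0.37, DBP at 4.34 ± 0.29, ARNTL at 2.72 ± 0.14, RORA at 0.218 ± 0.062 and HLF at 0.0542 ± 0.029 RPKM (SD, n = 2). With vector the order was NFIL3 at 18.5 ± 0.62, NPAS2 at 15.6 ± 0.41, TEF at 10.9 ± 0.38, DBP at 10.3 ± 0.17, CLOCK at 7.56 ± 1.21, ARNTL at 3.95 ± 0.16, HLF at 0.770 ± 0.11 and RORA at 0.340 ± 0.078 RPKM. By these lengths TEF and DBP stood above CLOCK with vector and below it with SLNCR1, and HLF stood above RORA with vector and below it with SLNCR1. The order of different genes depends on the lengths, which count every annotated exon, and no others were tried. With delta-conserved the levels were 17.1 for NPAS2, 13.6 for NFIL3, 7.37 for CLOCK, 4.37 for TEF, 3.81 for DBP, 2.76 for ARNTL, 0.404 for RORA and 0.0688 RPKM for HLF. With conserved they were 17.9 for NFIL3, 15.0 for NPAS2, 10.5 for TEF, 8.53 for DBP, 7.81 for CLOCK, 3.80 for ARNTL, 0.774 for HLF and 0.365 RPKM for RORA. With SLNCR1, TEF and DBP differed by less than their SDs.

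The summed RPKM of HLF, DBP and TEF was 8.34 and 9.24 with SLNCR1, 9.01 and 7.49 with delta-conserved, 19.6 and 20.2 with conserved, and 22.2 and 21.8 with vector. TEF and DBP supplied nearly all of it in roughly equal parts. HLF supplied 0.899% and 0.361% of the sum with SLNCR1, 0.915% and 0.738% with delta-conserved, 3.62% and 4.17% with conserved, and 3.81% and 3.20% with vector. Divided by the RPKM of NFIL3, the sum came to 0.561 and 0.596 with SLNCR1, 0.669 and 0.547 with delta-conserved, 1.11 and 1.11 with conserved, and 1.17 and 1.20 with vector. With these exon lengths the sum was below the RPKM of NFIL3 in all 4 libraries with SLNCR1 or delta-conserved and above it in the other 4. The lengths count every annotated exon, also those of transcripts that may not be made here. No other lengths were tried. In the change of the ratio between groups only the length of NFIL3 cancels. The lengths of HLF, DBP and TEF still weight these genes within the sum. All of these values are RNA levels, and no protein was measured.

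**Figure D3:**
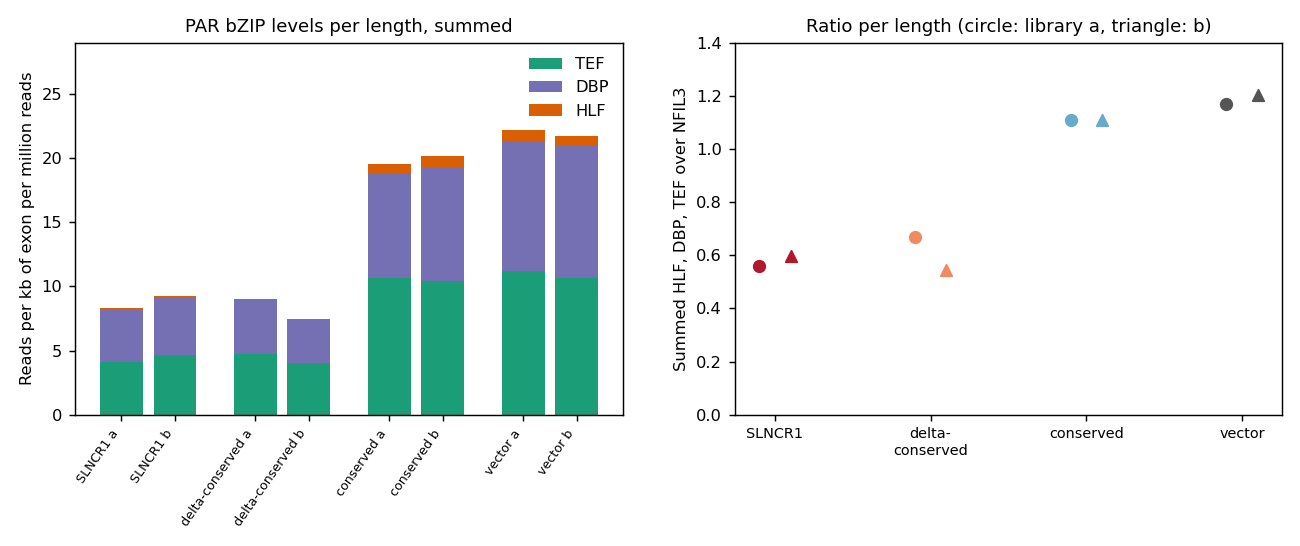
Left, RPKM (y axis) of TEF, DBP and HLF stacked for each of 8 libraries (x axis). Right, their sum divided by the RPKM of NFIL3 (y axis) for library a (circle) and b (triangle) of each group. The ratio lies between 0.547 and 0.669 with SLNCR1 and delta-conserved and between 1.11 and 1.20 with conserved and vector.

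ARNTL, the obligate partner in the activating pair of the clock, was modestly lower with SLNCR1 and delta-conserved. It had 179 and 190 normalized counts with SLNCR1, 179 and 203 with delta-conserved, 268 and 253 with conserved, and 266 and 259 with vector. The first 2 groups lay below the others without overlap, a separation whose share over all genes was not counted. In the authors' deposited table ARNTL missed the threshold, at a log2 of -0.51 for SLNCR1 (adjusted p = 0.164), -0.46 for delta-conserved (adjusted p = 0.0847) and -0.03 for conserved (adjusted p = 1). By limma it passed with SLNCR1, at -0.51 ± 0.11 (adjusted p = 0.00721), and with delta-conserved, at -0.46 ± 0.11 (adjusted p = 0.0126). Without vector library a the limma adjusted p was 0.0967 with SLNCR1 and 0.120 with delta-conserved, and without delta-conserved library a it was 0.122 with delta-conserved.

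CLOCK, a histone acetyltransferase and partner of ARNTL, did not pass either test against vector. CLOCK had 856 and 618 normalized counts with SLNCR1, 858 and 928 with delta-conserved, 971 and 901 with conserved, and 963 and 792 with vector. SLNCR1 library b was the lowest of the 8, and SLNCR1 library a lay within the range of the other groups. The difference of SLNCR1 from vector was -0.26 ± 0.12 by limma (adjusted p = 0.146), -0.03 without SLNCR1 library b (adjusted p = 0.893) and -0.50 without SLNCR1 library a (adjusted p = 0.000107).

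NPAS2, the paralog that can take the place of CLOCK, was the 1 gene of the 8 with a positive difference with both SLNCR1 and delta-conserved. NPAS2 had 2138 and 2074 normalized counts with SLNCR1, 2189 and 2214 with delta-conserved, 1855 and 1956 with conserved, and 1859 and 1995 with vector. The first 2 groups lay above the others without overlap. The share of all genes that do so was not counted, so this adds no support. By the authors' deposited table the log2 was 0.13 with SLNCR1 (adjusted p = 1) and 0.19 with delta-conserved (adjusted p = 0.261). By limma it was 0.13 ± 0.07 (adjusted p = 0.214) and 0.19 ± 0.07 (adjusted p = 0.0739), and the second value passed when SLNCR1 library a (0.0262) or library b (0.0251) was left out of the shared fit. The antisense gene AC016738.1 overlaps 5.99% of the exon bases of NPAS2, and reads of the 2 strands cannot be told apart.

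RORA, the nuclear receptor that activates ARNTL, had few reads. It had 45.3 and 29.8 normalized counts with SLNCR1, 61.2 and 80.8 with delta-conserved, 66.8 and 60.0 with conserved, and 65.6 and 48.9 with vector. Both SLNCR1 libraries lay below all the others, and the other 3 groups overlapped. The authors' deposited table put RORA at a log2 of -0.61 for SLNCR1 (adjusted p = 0.997), 0.31 for delta-conserved (adjusted p = 1) and 0.13 for conserved (adjusted p = 1). By limma the SLNCR1 difference was -0.61 ± 0.23 (adjusted p = 0.0963), -0.32 without SLNCR1 library b (adjusted p = 0.540) and -0.90 without SLNCR1 library a (adjusted p = 0.00893). Antisense RORA-AS1 overlaps 3.31% of its exon bases.

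The constructs were next compared with each other by limma. SLNCR1 and delta-conserved differ by the conserved region, and none of the 8 genes passed between them, where 0% of all 16073 genes passed. For the PAR bZIP genes the 95% interval of SLNCR1 minus delta-conserved ran from -1.14 to 0.44 for HLF, from -0.05 to 0.37 for DBP and from -0.22 to 0.19 for TEF. A miss of the threshold does not show that the 2 constructs act alike, and for HLF in particular the interval is wide. RORA had the most negative estimate, -0.92 ± 0.23 (unadjusted p = 0.00106, adjusted p = 0.481). Without SLNCR1 library a both RORA, at -1.21 (adjusted p = 0.00162), and CLOCK, at -0.53 (adjusted p = 0.000121), passed, and without SLNCR1 library b RORA was at -0.63 (adjusted p = 0.999).

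Against the conserved region alone, 5 of the 8 genes were lower with SLNCR1 and 5 were lower with delta-conserved, where 9.46% and 5.79% of all genes tested were lower. HLF, DBP, TEF and ARNTL were in both sets. For SLNCR1 minus conserved the log2 differences were -3.59 ± 0.37 for HLF (adjusted p = 5.59e-06), -0.99 ± 0.10 for DBP (adjusted p = 3.39e-06), -1.27 ± 0.10 for TEF (adjusted p = 1.49e-07), -0.50 ± 0.11 for ARNTL (adjusted p = 0.00559) and -0.77 ± 0.23 for RORA (adjusted p = 0.0413). For delta-conserved minus conserved they were -3.24 ± 0.37 for HLF (adjusted p = 1.92e-05), -1.15 ± 0.10 for DBP (adjusted p = 5.95e-07), -1.26 ± 0.10 for TEF (adjusted p = 1.78e-07), -0.38 ± 0.09 for NFIL3 (adjusted p = 0.0109) and -0.45 ± 0.11 for ARNTL (adjusted p = 0.0161). RORA with SLNCR1 was lost without SLNCR1 library b (-0.47, adjusted p = 0.324), without either conserved library (0.252 and 0.120), and marginally without vector library a (0.0506) or delta-conserved library b (0.0528). It was also lost when only the 2 groups compared were fitted (0.0787). ARNTL with SLNCR1 was lost without conserved library a (0.0957). With delta-conserved, NFIL3 was lost without any 1 of the 4 libraries compared (0.0588 to 0.160), and ARNTL without delta-conserved library a (0.199) or conserved library a or b (0.205 and 0.0882). Of the genes that missed the threshold, CLOCK was at -0.36 ± 0.12 (adjusted p = 0.0532), NFIL3 at -0.25 ± 0.09 (adjusted p = 0.0731) and NPAS2 at 0.14 ± 0.07 (adjusted p = 0.170) for SLNCR1 minus conserved. This CLOCK difference was -0.13 without SLNCR1 library b (adjusted p = 0.506), and passed at -0.59 without SLNCR1 library a (adjusted p = 5.36e-06) and, barely, with a pseudocount of 5 (0.0493). For delta-conserved minus conserved, NPAS2 was at 0.21 ± 0.07 (adjusted p = 0.0696), RORA at 0.15 ± 0.23 and CLOCK at -0.07 ± 0.12. This NPAS2 difference passed without SLNCR1 library a (0.0196) or b (0.0167), with library totals as the scaling (0.0413) and with only the 2 groups compared (0.00152). The 2 comparisons share the conserved libraries.

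Other genes of the clock were described from lists chosen with earlier results known. Of 10 circadian repressors, 9 were lower with SLNCR1, 9 with delta-conserved and none with conserved by the authors' adjusted p. Over all genes, 0.844% were called lower with SLNCR1, 1.14% with delta-conserved, and 0.0175% in either direction with conserved. The 1 repressor that did not pass with SLNCR1 or delta-conserved was BHLHE40 (DEC1), at a log2 of -0.08 with SLNCR1 and 0.06 with delta-conserved. The median log2 of the 10 was -1.57 with SLNCR1, -1.46 with delta-conserved and 0.00657 with conserved. CIART (CHRONO), an inhibitor of the ARNTL and CLOCK pair, had 6.04 and 13.2 normalized counts with SLNCR1, 8.90 and 11.4 with delta-conserved, 51.7 and 76.0 with conserved, and 81.8 and 60.4 with vector. Its log2 in the authors' deposited table was -2.88 with SLNCR1 (adjusted p = 9.67e-07) and -2.81 with delta-conserved (adjusted p = 4.91e-07). BHLHE41 (DEC2), an E-box repressor, was at -2.48 with SLNCR1 (adjusted p = 1.57e-51) and -2.38 with delta-conserved (adjusted p = 3.84e-42) in that table. The period gene PER2 was at -2.06 with SLNCR1 (adjusted p = 8.24e-34) and -1.81 with delta-conserved (adjusted p = 9.08e-33), and PER1 at -1.62 (adjusted p = 3.79e-28) and -1.53 (adjusted p = 9.75e-27). NR1D1 (REV-ERB alpha), which represses ARNTL and NFIL3, was at -1.61 with SLNCR1 (adjusted p = 1.13e-41) and -1.61 with delta-conserved (adjusted p = 2.09e-64). NR1D1 shares its end with THRA on the other strand, so its reads without strand are uncertain.

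**Figure D4:**
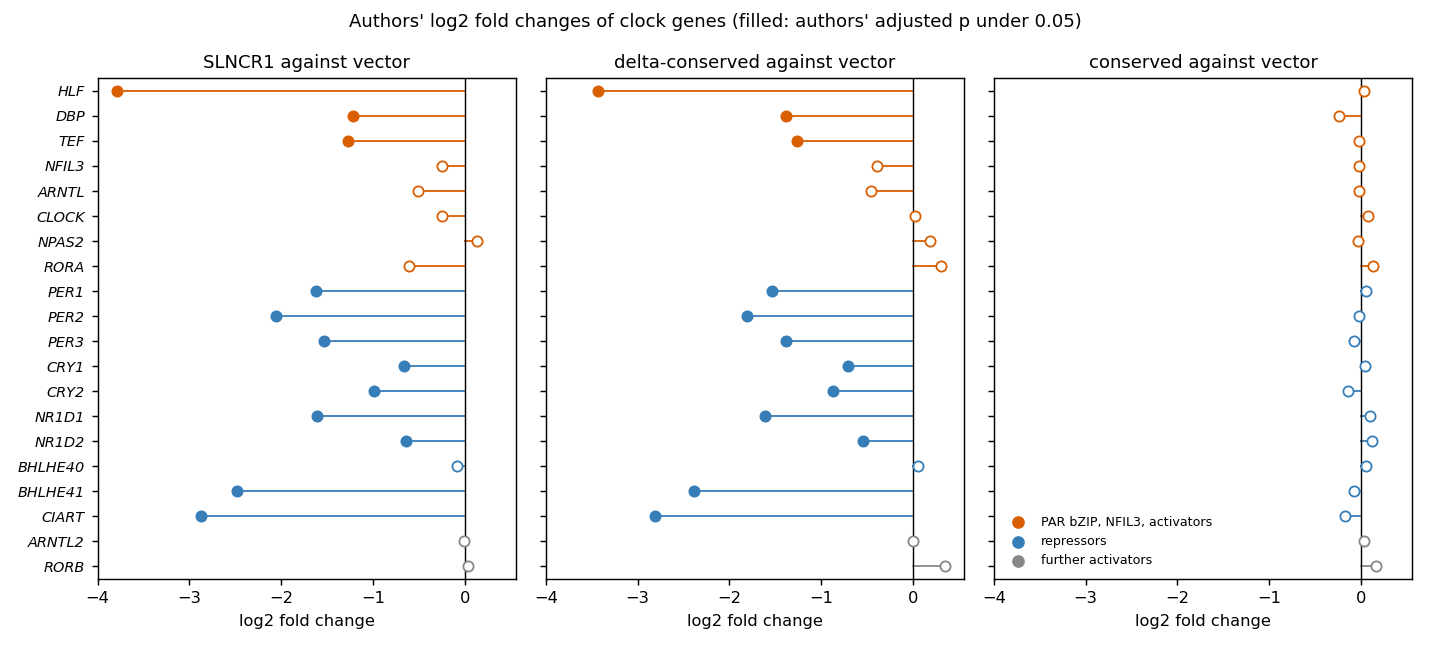
Log2 fold change of each construct over vector in the authors' deposited table (x axis) for clock genes (rows), in 1 panel a construct; filled points passed the authors' adjusted p of 0.05. Filled points are HLF, DBP, TEF and 9 of 10 repressors with SLNCR1 and with delta-conserved, and none with conserved.

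Neither of 2 further activators, the ARNTL paralog ARNTL2 and the receptor RORB, passed against vector with any construct. In the authors' deposited table ARNTL2 was at a log2 of -0.01 for SLNCR1, -0.00112 for delta-conserved and 0.03 for conserved (adjusted p = 1 in each). RORB was at 0.03 for SLNCR1 (adjusted p = 1), 0.35 for delta-conserved (adjusted p = 0.412) and 0.17 for conserved (adjusted p = 1) in that table. Of 6 clock kinases and ubiquitin ligases (casein kinases, GSK3B and F-box proteins) none passed, with median log2 values of -0.02 with SLNCR1, 0.05 with delta-conserved and 0.02 with conserved. Of 6 C/EBP factors, a related bZIP family, none passed with SLNCR1 or conserved by the authors' adjusted p. DDIT3 (CHOP), the stress-induced member that inhibits other C/EBP factors, fell with delta-conserved (log2 -0.59, adjusted p = 0.000185) and was at -0.52 with SLNCR1 (adjusted p = 0.234). By limma, which could test 5 of the 6, DDIT3 was lower with both, at -0.54 ± 0.11 with SLNCR1 (adjusted p = 0.00418) and -0.58 ± 0.11 with delta-conserved (adjusted p = 0.00304). Of 9 genes reported as targets of PAR bZIP factors, mostly in mouse liver, 8 had a p-value. PER1, also a repressor above, was the 1 that fell with SLNCR1 and with delta-conserved, and none passed with conserved. Over all genes, 0.844% were called lower with SLNCR1 and 1.14% with delta-conserved by the authors' adjusted p. The bile acid enzyme CYP7A1 had no reads in any group. CES2, a carboxylesterase and the next by adjusted p with delta-conserved, was by the authors' deposited table at -0.23 with SLNCR1 (adjusted p = 0.698) and -0.26 with delta-conserved (adjusted p = 0.0687), and was named after its values were seen. By limma 7 targets could be tested and 2 were lower with SLNCR1 and with delta-conserved, PER1 and CES2, where 7.4% and 5.24% of all genes tested were called lower.

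Likeness of pattern was measured as Pearson's r of log2(normalized count + 1) over the 8 libraries, among genes with a mean of at least 10 counts. The libraries fall in 2 clusters, SLNCR1 with delta-conserved and conserved with vector, and were normalized together, so a high r follows that split and is given with no p. Among the 8 genes HLF, DBP and TEF had a high r with each other (0.956 for HLF and DBP, 0.978 for HLF and TEF, 0.983 for DBP and TEF). Many other genes were closer, since of 16072 genes TEF was 87th and DBP 238th in likeness to HLF, and TEF was 12th in likeness to DBP. ARNTL had an r of 0.937 with HLF and 0.957 with TEF, and NFIL3 0.956 with DBP, whereas CLOCK (0.527 with HLF) and RORA (0.374 with HLF) followed the split less. NPAS2 had a negative r with all 3 PAR bZIP genes, from -0.906 with TEF to -0.857 with HLF. Over all tested genes the 5 most like HLF were BEST1 (0.996), GRHL3 (0.996), ZNF436 (0.996), PRDM4 (0.994) and PPM1D (0.992). Those most like DBP were ZNF646 (0.995), RP5-874C20.3 (0.991), LRSAM1 (0.988), FAM46B (0.988) and MAP3K14 (0.985). Those most like TEF were BHLHE41 (0.997), SBDSP1 (0.996), CCDC181 (0.995), CD99P1 (0.995) and ADIRF-AS1 (0.995), of which SBDSP1 and CD99P1 are pseudogenes whose reads may be shared with their parent genes. The sizes differed widely at a like r, as BEST1 was at a log2 of -2.37 with SLNCR1 and ZNF436 at -0.39 in the authors' deposited table, where HLF was at -3.79.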

How the data were processed

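Poly(A)-selected RNA of 4 groups of 2 libraries of A375 cells was sequenced with a kit that does not mark strand, per the labels' protocols. The deposited data are 3 tables of a construct against vector over 56638 entries. STAR, featureCounts and DESeq were used with hg19, per the submitters' processing notes. The sources used here give no versions, settings or annotation. The deposited signal is, for each gene, the authors' group mean of normalized reads, per the file headers and the values. The fold change is the deposited ratio of construct to vector means, and its log2 was taken here. Both the raw and the adjusted p-value are the authors' own, from the deposited tables. Calls against vector are those with the authors' adjusted p under 0.05.

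Each group mean adds up whole reads of 2 libraries, each scaled by a constant, so the reads of each library could be solved for. Where several solutions fitted a gene above a low mean, those with very unlike libraries were set aside if any other remained. After this step the solution was unique for 100% of genes with reads, except with conserved, where it was 99.981% and 6 genes, none reported here, had several. Uniqueness may thus rest in part on the 2 libraries being taken as alike, which could understate their spread. The genes that this step touched were not counted. Reads were normalized by median-of-ratios size factors over 8 libraries and tested with limma 3.58.1 in R 4.3.3 (trend, 4 residual degrees of freedom, prior 13.6) on log2(normalized count + 1), over 16073 genes that averaged 10 or more. Both the recovery and the fit were tested on simulated data. Count models were not run on recovered reads. Alternatives used TMM scaling (trimmed mean of M values) or library totals, other pseudocounts and filters, only the 2 groups compared, and each library left out in turn. Python 3.11.15 with pandas 2.3.3, numpy 2.4.6, scipy 1.17.1 and matplotlib 3.10.9 did the rest. Exon lengths are of the GENCODE 29 union on GRCh38, not of the files' build. Spreadsheet software had turned 28 identifiers into dates.

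The genes, lists and tests were chosen with earlier results of these data known. All 8 genes are named, as are up to 4 passing genes of each list by size, the 5 genes most like each PAR bZIP gene, and LINC00511. BHLHE40, CES2, CYP7A1 and, with SLNCR1, DDIT3, and the genes of the marker lists, were named after their values were seen. Markers of 4 other cell types were counted: 3 keratinocyte, 3 leukocyte, 3 endothelial and 3 fibroblast genes, of which none passed against vector in the authors' table. A further gene of the lists is not reported here.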

Additional observations from a re-analysis of the deposited data

Results flagged for a closer look

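Between constructs, 10 differences passed the test of the difference itself, by limma with Benjamini-Hochberg adjustment over 16073 genes. For SLNCR1 minus conserved the log2 differences were -3.59 for HLF, -0.99 for DBP, -1.27 for TEF, -0.50 for ARNTL and -0.77 for RORA, with adjusted p-values from 1.49e-07 for TEF to 0.0413 for RORA. For delta-conserved minus conserved they were -3.24 for HLF, -1.15 for DBP, -1.26 for TEF, -0.38 for NFIL3 and -0.45 for ARNTL, with adjusted p-values from 1.78e-07 for TEF to 0.0161 for ARNTL. In each of these, both libraries of the first construct lay below both libraries of the conserved group. The differences were picked by a test on these same libraries, so this separation adds no support. Its share over all genes was not counted. Over all genes, 9.46% were called lower for SLNCR1 against conserved and 5.79% for delta-conserved against conserved. No group had the 4 libraries needed to look for a library far from the rest.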

How the results depend on the processing

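No paired analysis was possible because the deposited columns are group means and the recovered libraries carry no replicate number. Against vector the authors' count with delta-conserved was 3 of 8 at an adjusted p under 0.05, where 1.14% of all genes were called lower. It was 5 at an adjusted p under 0.1, where the share over all genes was not counted. By limma the count was 5, where 5.24% of all genes tested were called lower. NFIL3 and ARNTL were added in both cases. Leaving out 1 library at a time, the limma counts ranged from 3 to 6 for SLNCR1 and for delta-conserved against vector, from 0 to 2 for SLNCR1 against delta-conserved, and from 3 to 6 for SLNCR1 and for delta-conserved against conserved. A lone remaining library was assumed to vary like the other groups, and the share of all genes called in these fits was not counted. With SLNCR1 and with delta-conserved, the calls of HLF, DBP and TEF against vector and against conserved held by limma under every alternative in which they were tested; the filter at a mean of 50 left HLF out. The HLF difference then ranged from -3.99 to -2.70 with SLNCR1 and from -3.42 to -2.52 with delta-conserved against vector. No called difference turned direction. Of the values of single genes under the alternatives, 13 newly passed and 20 no longer passed. All the rest kept their side of the threshold. Of these, 17 passed in neither fit and moved by at least the replicate spread. The other 663 either kept a call or passed in neither fit and moved by less than that spread. Scaling by TMM or library totals moved the median of all genes by less than 0.1 on the log2 scale; under TMM, NFIL3 passed with SLNCR1 against vector (-0.29, adjusted p = 0.0451). The count-based tests, planned for the case that counts per library were given, were not run on the recovered reads. Depth limits HLF, with 2 to 5 reads in each SLNCR1 and delta-conserved library.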
